A study of Mus musculus with 16 samples.

Results

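miR-221-3p and miR-222-3p, a pair of microRNAs (miRNAs) made from neighbouring genes, were followed in the culture medium of irradiated colorectal cancer cells. They were taken by name from the array's annotation (hsa-miR-221-3p and hsa-miR-222-3p) and are 2 of the 1205 human miRNAs on the array and 2 of the 283 that passed the filter on dim probes. HCT116 is an established human colorectal carcinoma line. Its cultures were irradiated with high-dose-rate X-rays of 2, 6 or 10 Gy or stayed unirradiated (0 Gy). All were then incubated for 72 h with RPMI1640 and 10% fetal bovine serum, so every supernatant also holds serum. RNA from each supernatant was hybridised to 1 single-colour Agilent array, with 4 separate cultures per dose and 16 arrays in all. The labels name the mouse as organism, while the line is human and the probes used here carry human names, which were kept. With RNA from a whole supernatant, a change in the number of cells and a change in what each cell releases cannot be told apart. For each array 100 ng of RNA was labelled, and signals were then scaled. Values are thus relative to the RNA loaded and are not amounts per supernatant.

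A miRNA is a short RNA that guides a silencing complex to messenger RNAs, mainly through its seed, the stretch near its 5′ end. The genes of miR-221 and miR-222 lie side by side on the X chromosome, are transcribed together and share a seed, so their predicted targets largely coincide. The pair is best known for repressing CDKN1B, which encodes the cyclin-dependent kinase inhibitor p27 and holds cells before DNA replication. Further known targets are CDKN1C (the inhibitor p57), the receptor gene KIT and BBC3, the pro-apoptotic factor PUMA. The pair is often raised in epithelial cancers, and both miRNAs have been found outside cells, in vesicles and bound to protein.

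The sequences show what the pair shares and where its members part. The table at hand (RefSeq) was of the mouse, build GRCm38.p6, so the mouse mature forms are printed, read 5′ to 3′, with the seed (bases 2 to 8) in capitals.
mmu-miR-221-3p: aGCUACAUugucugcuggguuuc
mmu-miR-222-3p: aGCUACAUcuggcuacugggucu
The first 8 bases are the same in both, and 11 of 23 positions are the same when the mature forms are laid side by side without gaps. Of the 1679 mature miRNAs in that table, 3 carry this seed, the pair and miR-1928. In the mouse the mature miR-221-3p lies at chrX:19146307-19146329 and miR-222-3p at chrX:19146901-19146923, both on the minus strand, within the hairpin genes Mir221 and Mir222. These hairpins are 504 bases apart.

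On the array each of the pair had 2 probes of 20 spots. Signals were divided by each array's 75th percentile over the 450 human probes detected on all 16 arrays, and a level is the log2 of that scaled signal, averaged over a miRNA's probes. Values under a floor of -4.61, near which the dimmest detected probes lay, were set to the floor and have no order among themselves. Levels can be compared between arrays for 1 miRNA, not between the miRNAs, because probes differ in brightness. miR-222-3p was detected on 16 of 16 arrays. miR-221-3p was detected on 12 of 16, on all 4 at 0 Gy, 1 of 4 at 2 Gy, 3 of 4 at 6 Gy and all 4 at 10 Gy. The passenger arms miR-221-5p and miR-222-5p, the strands usually discarded, were on the array and detected on 0 arrays.

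Both miRNAs were lower in the medium of cells given 2 or 6 Gy than in that of unirradiated cells. After 10 Gy neither was shown to differ from the unirradiated level. Only the falls of miR-221-3p at 2 and 6 Gy passed the test. In the order of replicates 1 to 4, miR-221-3p stood at -1.89, -1.34, -3.84 and -1.90 at 0 Gy. At 2 Gy, replicate 2 stood at -3.30 and the other 3 arrays were at the floor. The 6 Gy arrays stood at -4.51, -3.32, -3.69 and the floor, and the 10 Gy arrays at -3.23, -1.81, -2.62 and -3.25. The 0 and 10 Gy arrays overlapped, and 0 Gy replicate 3 stood apart from its group, lower than all 4 arrays at 10 Gy.

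The levels of miR-222-3p followed the same order. They were -0.95, -0.35, -2.43 and -0.49 at 0 Gy, and -3.52, -1.37, -3.50 and -3.45 at 2 Gy. At 6 Gy they were -2.60, -1.77, -2.05 and -4.21, and at 10 Gy -1.42, -0.64, -1.04 and -1.76. The same 2 arrays departed from their groups for both miRNAs, 0 Gy replicate 3 on the low side and 2 Gy replicate 2 on the high side. They were the lowest array at 0 Gy and the highest at 2 Gy. Leaving them out thus favours a gap between these doses, and the gap then seen for both miRNAs supports nothing further.

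**Figure D1:**
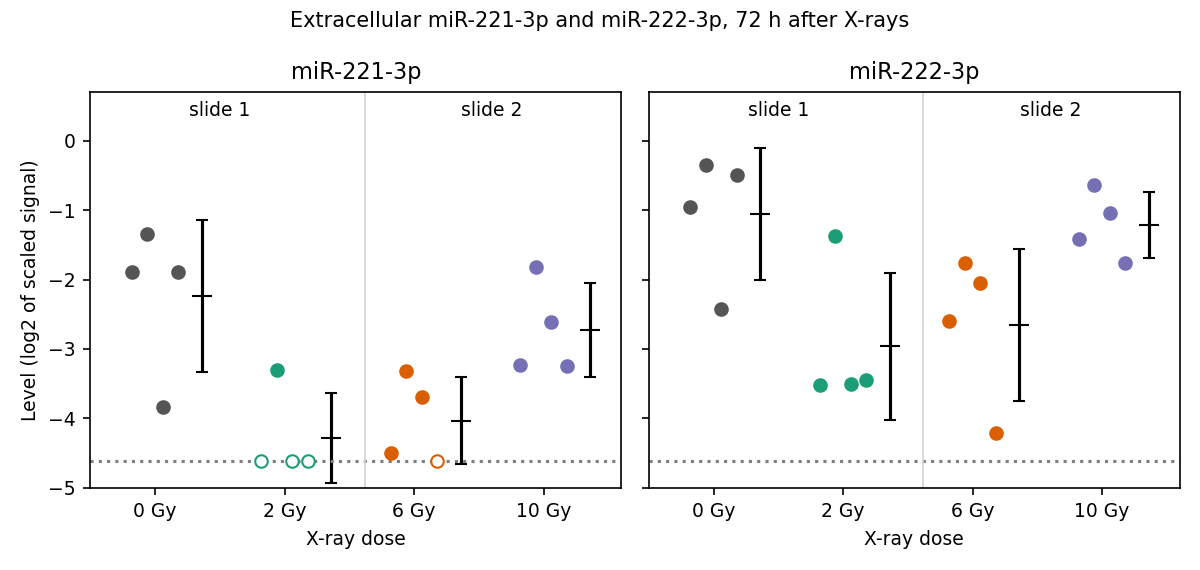
Levels of miR-221-3p (left) and miR-222-3p (right) on each of 16 arrays by X-ray dose, as log2 of scaled signal. Points run in the order of replicates 1 to 4, open points mark arrays on which no probe was detected, bars are the mean ± SD of 4 arrays, and the dotted line is the floor of -4.61. For miR-221-3p 3 arrays at 2 Gy and 1 at 6 Gy lie on the floor, whereas miR-222-3p, the mean of 2 probes of which the dim one is at the floor on those same 4 arrays, stays above it.

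At 2 Gy, miR-221-3p averaged -4.28 ± 0.65, against -2.24 ± 1.09 at 0 Gy (SD, n = 4 each). The difference was -2.04 ± 0.52 (SE, 95% interval -3.14 to -0.93), or 4.11-fold lower, with an adjusted p of 0.0303 by limma over the 283 miRNAs tested. Since 3 of the 4 arrays at 2 Gy were at the floor, the size of this fall depends on where the floor lies, and a floor at the 1st in place of the 5th percentile of detected probes gave -2.16. miR-222-3p averaged -2.96 ± 1.06 at 2 Gy, against -1.05 ± 0.95 at 0 Gy. Its difference was -1.90 ± 0.61 (95% interval -3.21 to -0.60), or 3.74-fold lower, and missed the threshold in limma with an adjusted p of 0.0530 (unadjusted 0.00722). This size too depends on the floor, because the dim one of its 2 probes was at the floor on 3 of the 4 arrays at 2 Gy. miR-221-3p passed the filter on dim probes only through the 0 and 10 Gy arrays, where it was high, so the filter favoured its falls at 2 and 6 Gy. Of miR-222-3p the bright probe passed at every dose. Its dim probe passed only through the 0 and 10 Gy arrays, so the same limit holds for that part of its level. The background correction also set the size. With normexp, run with an added offset of 50 intensity units, the 2 Gy differences were -0.95 for miR-221-3p and -1.16 for miR-222-3p. Such an offset by itself shrinks log2 differences of dim probes, and its part was not tested apart from that of the subtraction. In this comparison 12.7% of all tested miRNAs passed in either direction, 6.71% as lower and 6.01% as higher, and the median difference over all of them was 0.03. For each of the pair 3 of the 4 arrays at 2 Gy were below every array at 0 Gy, as at least 3 were for 16.3% of tested miRNAs.

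The 6 Gy arrays gave a like picture with smaller differences. miR-221-3p averaged -4.03 ± 0.63 at 6 Gy, and its difference from 0 Gy was -1.79 ± 0.52 (95% interval -2.89 to -0.68), or 3.45-fold lower, with a limma adjusted p of 0.0390. miR-222-3p averaged -2.66 ± 1.09 at 6 Gy, and its difference from 0 Gy was -1.60 ± 0.61 (95% interval -2.91 to -0.30), or 3.04-fold lower, with a limma adjusted p of 0.0620. Here 19.4% of all tested miRNAs passed, 13.4% as lower and 6.01% as higher, with a median difference of 0.12 over all. For each of the pair 2 of the 4 arrays at 6 Gy were below every array at 0 Gy, as at least 2 were for 26.1% of tested miRNAs. With normexp and the same offset the 6 Gy differences were -0.83 and -1.06. The 6 and 10 Gy arrays were on one slide and the 0 and 2 Gy arrays on the other, so for 6 or 10 Gy against 0 Gy dose and slide cannot be told apart.

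At 10 Gy neither miRNA was shown to differ from 0 Gy. miR-221-3p averaged -2.73 ± 0.68 at 10 Gy, a difference of -0.48 with a 95% interval of -1.59 to 0.62 and a limma adjusted p of 0.596. miR-222-3p averaged -1.21 ± 0.48 at 10 Gy, a difference of -0.16 with an interval of -1.46 to 1.14 and a limma adjusted p of 0.909. Falls as large as the lower bounds of these intervals were not shown to be absent. Leaving out single arrays gave -1.02 to -0.19 for miR-221-3p. The value of -1.02 came without 0 Gy replicate 3, the low array of its group (limma adjusted p = 0.0972). Of all tested miRNAs 0.353% passed at 10 Gy against 0 Gy.

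For both miRNAs the order of the mean levels, from low to high, was 2, 6, 10 and 0 Gy, and no neighbours in that order passed the test. Between 6 and 2 Gy the difference was 0.25 (95% interval -0.86 to 1.35) for miR-221-3p and 0.30 (-1.0 to 1.60) for miR-222-3p, with an adjusted p of 0.956 by limma for each. Between 10 and 6 Gy, on one slide, miR-221-3p was 2.47-fold higher at 10 Gy, a difference of 1.30 (0.20 to 2.41), and miR-222-3p 2.72-fold higher, a difference of 1.44 (0.14 to 2.74). Both had a limma adjusted p of 0.314, with 0.0240 and 0.0321 unadjusted. The lowest 10 Gy array lay just above the highest 6 Gy array for miR-221-3p (-3.25 against -3.32) and for miR-222-3p (-1.76 against -1.77). How many of all tested miRNAs separate in this way was not computed, so the separation supports nothing particular to the pair. Over all tested miRNAs 0 passed in this comparison, and 45 had an unadjusted p under 0.05. The F test for any difference among the 4 doses gave 7.37 for miR-221-3p (limma adjusted p = 0.0536) and 5.17 for miR-222-3p (0.0957), and called 0 of 283 miRNAs, with 91 under 0.05 unadjusted.

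**Figure D2:**
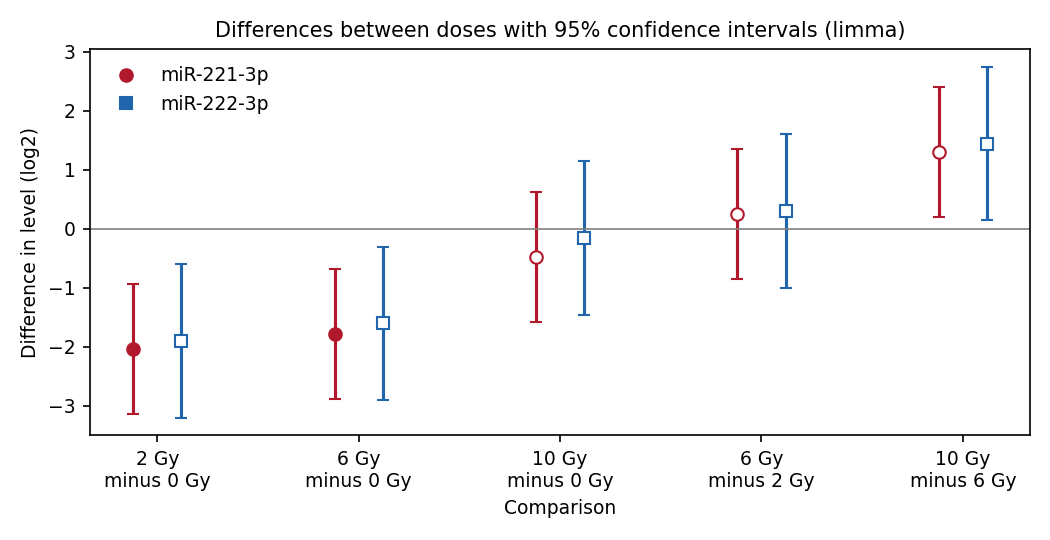
Difference in level (log2) between doses for miR-221-3p (circles) and miR-222-3p (squares) in 5 comparisons, with 95% confidence intervals from the limma fit of 16 arrays. Filled symbols passed an adjusted p of 0.05, which only miR-221-3p did, at 2 and at 6 Gy against 0 Gy, and in each comparison the intervals of the pair overlap.

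The probes of each miRNA moved the same way. The bright miR-222-3p probe (A_25_P00012126) was above background on all arrays, reached the floor on none and so measures the change without it. Its unscaled signal in intensity units was 461, 1445, 223 and 868 at 0 Gy, and 91.3, 727, 71.2 and 98.1 at 2 Gy. At 6 Gy it gave 240, 471, 222.2 and 44.7, and at 10 Gy 485, 814, 581 and 229. Replicate 2 at 2 Gy was thus within the 0 Gy range, while the other 3 arrays at 2 Gy lay under the lowest 0 Gy array. The scaled difference of this probe was -2.14 at 2 Gy against 0 Gy, -1.95 at 6 Gy and -0.08 at 10 Gy. The dim miR-222-3p probe (A_25_P00012125), undetected on 2 arrays and at the floor on 4, gave -1.67, -1.26 and -0.24. For miR-221-3p the brighter probe (A_25_P00010690) gave -2.40, -2.01 and -0.68 and the other (A_25_P00010689) -1.68, -1.56 and -0.29.

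**Figure D3:**
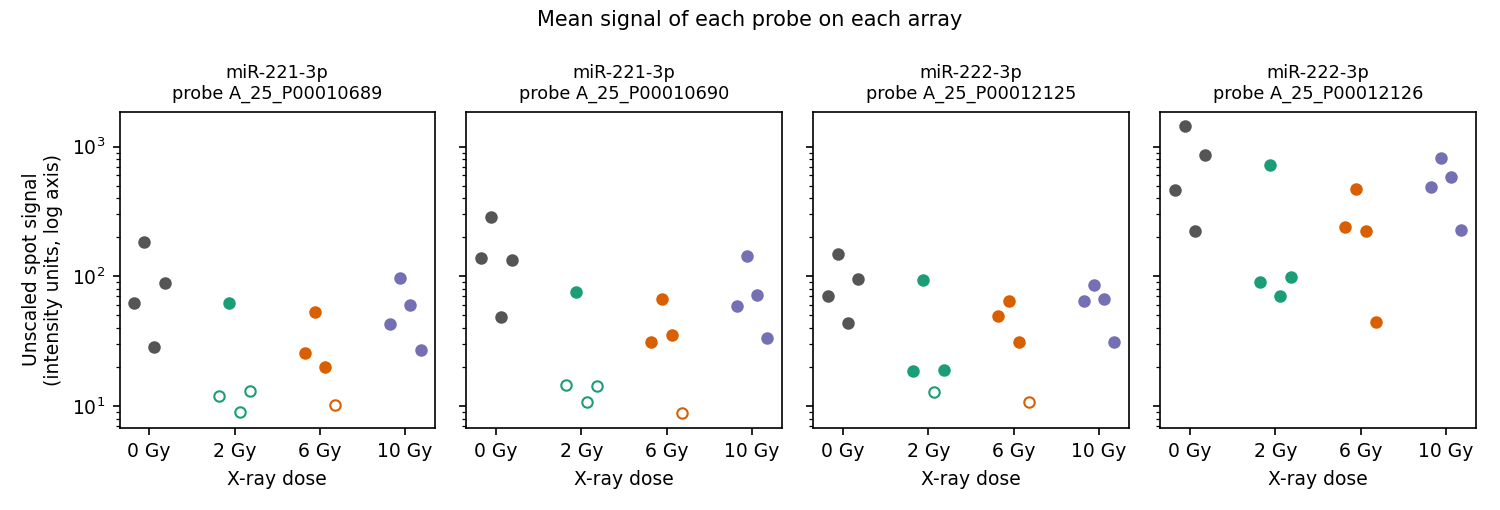
Unscaled signal of the 4 probes (A_25_P00010689 and A_25_P00010690 for miR-221-3p, A_25_P00012125 and A_25_P00012126 for miR-222-3p) on each array, in intensity units on a log axis, by dose. Open points mark arrays on which the probe was not detected. The brightest probe ranges from 44.7 to 1445 and is detected on all 16 arrays.

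A call for one miRNA and none for the other does not show that they responded differently, so the difference in response was tested on its own. The level of miR-221-3p minus that of miR-222-3p within an array averaged -1.19 ± 0.25, -1.32 ± 0.41, -1.37 ± 0.67 and -1.51 ± 0.27 at 0, 2, 6 and 10 Gy (SD, n = 4). At 2 Gy against 0 Gy the difference of miR-221-3p minus that of miR-222-3p was -0.13 (exact permutation p = 0.686, two-sided, 0.914 adjusted over 5 comparisons). The further differences in response were -0.18 at 6 Gy and -0.32 at 10 Gy against 0 Gy, -0.05 for 6 against 2 Gy and -0.14 for 10 against 6 Gy, with adjusted exact p of 0.714 to 0.914. The 70 regroupings of 4 against 4 arrays allow no p under 0.0286, and arrays at the floor limit how far miR-221-3p can fall.

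Across the 16 arrays the pair moved together, with Pearson's r of 0.94 and Spearman's rho of 0.97 (permutation p = 1e-05 each, the smallest the resamples can give, adjusted 1.5e-05 and 3e-05 over 3 relations). The relation held within each slide of 8 arrays, with r of 0.97 on slide 1 (exact p = 0.00119) and 0.90 on slide 2 (exact p = 0.00176). It also held for deviations from the dose means (r = 0.89, permutation p = 1e-05) and without the 2 arrays farthest from the median of miR-222-3p (r = 0.95). Arrays of one dose thus differed among themselves in both miRNAs at once.

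**Figure D4:**
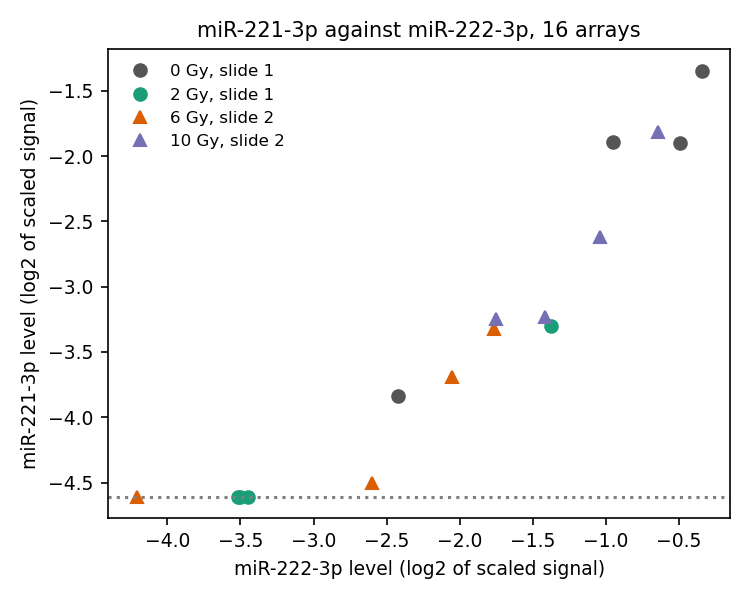
Level of miR-221-3p against that of miR-222-3p (log2 of scaled signal) on 16 arrays, coloured by dose, with circles for slide 1 and triangles for slide 2. The dotted line is the floor of -4.61 for miR-221-3p. The points follow one rising band (r = 0.94), with 0 Gy replicate 3 among the 6 Gy arrays and 2 Gy replicate 2 beside the 10 Gy arrays.

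The labelling spike-in, a synthetic RNA added before labelling, moved with the pair. Its log2 unscaled signal averaged 7.55 ± 2.28, 5.38 ± 0.93, 4.94 ± 0.55 and 6.80 ± 1.23 at 0, 2, 6 and 10 Gy, the same ranking as the pair's except that 6 Gy was lowest. It was at the floor on 3 arrays, namely 0 Gy replicate 3, 2 Gy replicate 1 and 6 Gy replicate 4. The scanner software rated it within range on 3 of 16 arrays, and rated the hybridisation spike-in within range on all 16. Between doses it differed by -2.16 at 2 Gy and -2.61 at 6 Gy against 0 Gy (exact permutation p = 0.171 and 0.143), and by 1.86 at 10 against 6 Gy (exact permutation p = 0.0286, adjusted 0.143).

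Over the 16 arrays miR-221-3p correlated with the spike-in at r = 0.89 and rho = 0.86 (permutation p = 1e-05 and 6e-05), with 0.87 on slide 1 and 0.96 on slide 2. For miR-222-3p r was 0.81 and rho 0.88 (permutation p = 0.00015 and 3e-05), with 0.82 and 0.86 on the slides. Without the 2 arrays farthest from the spike-in's median, r was 0.88 and 0.82. With the spike-in as a covariate in limma, the difference of miR-221-3p was -1.02 at 2 Gy (adjusted p = 0.151) and -0.57 at 6 Gy (0.531), and that of miR-222-3p was -0.91 (0.381) and -0.40 (0.774). Its part in the pair's differences was not tested beyond this fit, and the spike-in, like the pair, was lower in the groups given 2 and 6 Gy.

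**Figure D5:**
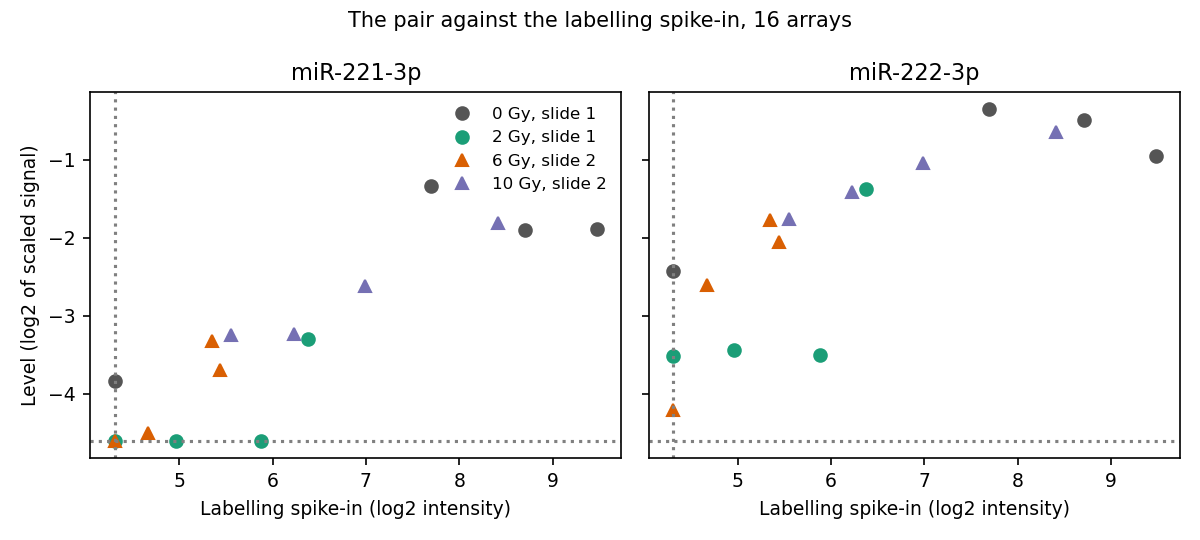
Levels of miR-221-3p (left) and miR-222-3p (right), as log2 of scaled signal, against the labelling spike-in (log2 of unscaled intensity) on 16 arrays. Dotted lines are the floors, colours are doses, and circles and triangles are slides 1 and 2. Both miRNAs are higher where the spike-in is higher (r = 0.89 and 0.81).

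The signal used for scaling, which is not a total over the array, did not follow the pair's order of doses. The 75th percentile used for scaling averaged 8.84 ± 0.35, 8.95 ± 0.35, 9.08 ± 0.44 and 8.60 ± 0.31 at 0, 2, 6 and 10 Gy (log2 of unscaled intensity), and 242 to 358 human miRNAs were detected per array. Without scaling, miR-221-3p differed by -1.84 at 2 Gy (limma adjusted p = 0.101) and -1.65 at 6 Gy (0.136).

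Single arrays decided whether the pair passed. At 2 Gy against 0 Gy the call for miR-221-3p was lost without 0 Gy replicate 1, 2 or 4 (differences of -1.92, -1.74 and -1.92) or without 2 Gy replicate 1, 3 or 4 (-1.93 each). Without 0 Gy replicate 3 its difference was -2.57 (limma adjusted p = 0.00115). miR-222-3p passed without 0 Gy replicate 3 (-2.36, adjusted p = 0.00767), without 2 Gy replicate 2 (-2.43, 0.0153) and without 6 Gy replicate 4 (-1.90, 0.0285), which enters only through the shared spread. At 6 Gy against 0 Gy the call for miR-221-3p was lost on leaving out any of 10 of the 16 arrays, namely 0 Gy replicates 1, 2 and 4, 2 Gy replicates 1 and 4, 6 Gy replicates 1, 3 and 4 and 10 Gy replicates 1 and 3, with differences of -1.90 to -1.49. miR-222-3p passed at 6 Gy without 0 Gy replicate 3 (-2.06), 2 Gy replicate 2 (-1.60) or 6 Gy replicate 2 (-1.90), and without 6 Gy replicate 4 its difference was -1.09.

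Other miRNAs known to target cyclin-dependent kinase inhibitors were examined beside the pair. Of 9 listed, 8 were on the array and 5 were tested. At 2 Gy 2 of these 5 were called lower, where 6.71% of all tested miRNAs were. miR-92b-3p and miR-24-3p passed the filter only through the 0 Gy arrays and miR-25-3p only through the 0 and 10 Gy arrays, where they were high, so the filter favoured their falls and the count supports nothing about the list. miR-25-3p, which targets CDKN1C, averaged -3.79 ± 1.64 at 2 Gy and -0.53 ± 1.82 at 0 Gy, a difference of -3.25 (limma adjusted p = 0.0351). miR-92b-3p, which also targets CDKN1C, was at the floor on all 4 arrays at 2 Gy, so its difference of -0.46 (limma adjusted p = 0.0303) depends on the floor. miR-17-5p and miR-93-5p, which target CDKN1A, gave -1.07 and -1.46, and miR-24-3p, which targets CDKN2A, gave -2.47, with adjusted p of 0.120 to 0.221.

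At 6 Gy 2 of the 5 were called lower, where 13.4% of all tested miRNAs were, with the same limit from the filter. They were again miR-25-3p (-3.04, limma adjusted p = 0.0397) and miR-92b-3p (-0.44, 0.0359), whose 6 Gy mean of -4.59 lay next to the floor. miR-17-5p, miR-93-5p and miR-24-3p gave -1.64, -1.59 and -2.67. At 10 Gy against 0 Gy 0 of 5 passed, where 0.353% of all tested miRNAs did, and their differences ran from -1.14 to -0.45. Of the untested members, miR-20a-5p was detected on 9 arrays, miR-106b-5p on 7 and miR-20b-5p on 0, and miR-106a-5p had no probe. These comparisons share the 0 Gy arrays with those of the pair.

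The miRNAs whose levels were most like those of miR-221-3p over the 16 arrays were miR-25-3p (r = 0.98), miR-125b-5p (0.97), miR-100-5p (0.96), miR-181a-5p (0.96) and miR-342-3p (0.95), with miR-222-3p in place 7. For miR-222-3p they were miR-23a-3p (0.96), miR-92a-3p (0.96), miR-181a-5p (0.95), miR-25-3p (0.95) and miR-324-3p (0.95), with miR-221-3p again in place 7. These are descriptions over arrays that share scaling, slide and labelling, and the median r over all other tested miRNAs was -0.31 for miR-221-3p and -0.28 for miR-222-3p.

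Of 9 markers of colorectal epithelium, 3 were tested. miR-31-5p passed the filter only through the 0 Gy arrays, where it was high, so its lower values elsewhere were favoured by the filter. miR-200c-3p, miR-141-3p and miR-31-5p differed from 0 Gy by -2.14, -0.82 and -1.37 at 2 Gy and by -2.51, -2.07 and -1.69 at 6 Gy. At 10 Gy they differed by -0.74, -0.53 and -0.89. In limma 0 of 3 passed at these doses, where 12.7%, 19.4% and 0.353% of all tested miRNAs did at 2, 6 and 10 Gy. With 3 members the count supports nothing about the list. At 6 against 2 Gy the 3 markers differed by -0.37, -1.25 and -0.31, and the pair by 0.25 and 0.30. No difference among these passed (limma adjusted p of 0.832 to 0.956), and the markers were not tested against the pair. The listed miR-200a-3p, miR-200b-3p and miR-429, of the same family as miR-200c-3p and miR-141-3p, were untested and detected on 4, 8 and 6 arrays. The intestinal miR-192-5p, miR-194-5p and miR-215-5p were detected on 0 arrays. The labelled tissue thus rests here on miR-200c-3p, miR-141-3p and miR-31-5p, and most listed markers were not tested. The summed scaled signal of the 9 was 0.358 to 2.65 at 0 Gy, 0.345 to 2.00 at 2 Gy, 0.0381 to 0.796 at 6 Gy and 0.512 to 1.26 at 10 Gy. The part of these cells' number or release in the pair's differences was not tested.

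Markers of other cells, which serum can carry, were mostly absent. Of the red blood cell list miR-451a, miR-144-3p and miR-144-5p were detected on 0 arrays, and miR-486-5p, on 16, differed by 0.15, 0.22 and 0.31 at 2, 6 and 10 Gy. Of the 5 white blood cell and platelet markers only miR-155-5p was detected, on 16 arrays. It was higher at 6 Gy by 0.31 (limma adjusted p = 0.0397), where 6.01% of all tested miRNAs passed as higher. The endothelial miR-126-3p and miR-126-5p were detected on 0 arrays and the liver's miR-122-5p on 1 of 4 at each dose. The muscle markers miR-133a-3p, miR-133b and miR-206 were detected on 16, 13 and 16 arrays, and miR-1-3p on 0. Of the first 3, 0 passed against 0 Gy, where 12.7%, 19.4% and 0.353% of all tested miRNAs did at 2, 6 and 10 Gy. The summed scaled signal of the red blood cell list was 0.0726 to 0.0797 at 0 Gy, 0.0770 to 0.0896 at 2 Gy, 0.0713 to 0.103 at 6 Gy and 0.0918 to 0.0994 at 10 Gy. For the white blood cell and platelet list it was 0.138 to 0.170, 0.144 to 0.173, 0.165 to 0.188 and 0.165 to 0.177 at 0, 2, 6 and 10 Gy. For the muscle list it was 0.193 to 0.221, 0.154 to 0.221, 0.166 to 0.229 and 0.149 to 0.196 at 0, 2, 6 and 10 Gy.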

How the data were processed

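The deposited files are output of Agilent Feature Extraction 11.5.1.1 for 1 array each, per their headers. Per the file headers, the deposited intensity had its background subtracted by that software and was not scaled between arrays. Per the labels, an ISOGEN kit gave the RNA, of which 100 ng received Cy3. Groups came from the dose label; 2 Gy is absent from the design text. The design text says that the cultures of a dose were separate. The main fit did not take replicate numbers as pairs, as only 14 of 24 same-numbered pairs of arrays correlated over 0.1. Of differently numbered pairs 32 of 72 did. The median r was 0.31 for same-numbered and -0.31 for differently numbered pairs. Whether replicate numbers mark pairs was not tested, and the fit with a replicate block is in the closing section.

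Control and outlier-flagged spots (3.27 to 4.90% per array) were left out and a probe's spots averaged. A probe was detected where more than a share of 0.5 of its spots stood well above background. After scaling to the 75th percentile, a floor of 0.0410 scaled units (the median 5th percentile of detected probes) and log2, a miRNA was tested if a probe was detected on all 4 arrays of a dose: 592 of 3101 human probes, 283 miRNAs, 4.13% of values at the floor. limma 3.58.1 (R 4.3.3) fitted a mean per dose to all 16 arrays, with Benjamini-Hochberg adjustment. The number of arrays limits the precision. Correlations used 100000 resamples, or all orders within a slide (scipy 1.17.1). The fit was tested on simulated data with independent noise, without a floor and without changes shared by the miRNAs of an array. How it behaves with those features of the real arrays was not tested. The miRNAs named are the pair, their other arms, all tested members of the lists (1 list is not reported here), and the 5 highest r for each. Members and lists were chosen with earlier results of these data known. Alternatives are in the closing section.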

Additional observations from a re-analysis of the deposited data

Results flagged for a closer look

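Of 16 sets of 4 arrays examined, 3 held an array far from the others, all of them 2 Gy replicate 2. Chance gives about 1 in 20 for unrelated sets without a floor. The 3 sets share the same array and the pair's levels, so their count cannot be set against that rate. In miR-221-3p it stood at -3.30 while the other 3 arrays were at the floor of -4.61, so that the gap is set by the floor. In miR-222-3p it stood at -1.37, with the nearest array at -3.45. The level of miR-221-3p minus that of miR-222-3p on this array was -1.93, with the nearest at -1.16, a value computed with miR-221-3p at the floor.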

How the results depend on the processing

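The falls of miR-221-3p kept their direction under all alternatives run. The fit without both 0 Gy replicate 3 and 2 Gy replicate 2 left out the pair's lowest 0 Gy and highest 2 Gy arrays. That favours larger falls, so this fit is a description only. The 2 Gy difference (-2.04) missed the threshold without scaling (-1.84), with only the 8 arrays of both doses (-2.04, limma adjusted p = 0.117) and with the spike-in covariate (-1.02), and passed at -0.95 with normexp (limma adjusted p = 0.0431) and at -2.90 without both 0 Gy replicate 3 and 2 Gy replicate 2. The 6 Gy difference (-1.79) missed it under the same settings (-1.65, -1.79 and -0.57) and passed at -0.83 with normexp. Leaving out single arrays gave -2.57 to -1.74 at 2 Gy and -2.32 to -1.49 at 6 Gy. miR-222-3p at 2 Gy passed with the 75th percentile over all human probes (-1.54), quantile normalization (-1.74), the replicate block (-1.90, limma adjusted p = 0.0289) and without those 2 arrays (-2.89), and at 6 Gy with the replicate block (-1.60, 0.0380) and without those arrays (-2.06). Normexp gave -1.16 and -1.06, neither past the threshold. Leaving out single arrays gave -2.43 to -1.67 and -2.06 to -1.09. At 10 Gy it turned to 0.034 (75th percentile over all probes) and 0.19 (covariate), and ranged from -0.62 to 0.075 over single arrays left out. The F of miR-221-3p passed at 6.86 (75th percentile over all probes), 6.65 (quantile), 8.34 (brightest probe), 13.0 (replicate block) and 23.4 (without both arrays), with 5.76 to 15.9 over single arrays left out. That of miR-222-3p passed at 15.1 without both arrays, with 4.07 to 8.97. The difference in response turned to 0.21, 0.24 and 0.022 with normexp (2 and 6 against 0 Gy, 6 against 2 Gy), and for 6 against 2 Gy to 0.0054 (75th percentile over all probes), 0.00030 (floor at the 1st percentile) and 0.39 (total gene signal). Over single arrays left out it ranged from -0.21 to 0.069, -0.38 to 0.12 and, for 10 against 6 Gy, -0.32 to 0.19. The correlations stayed at 0.91 to 0.96, 0.78 to 0.89 and 0.72 to 0.86. Causes were not tested.

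Calls over all miRNAs at 2 Gy (36, 19 lower and 17 higher) became 19 with normexp, 0 without scaling (36 unadjusted), 125 with the 75th percentile over all probes (18 lower, 107 higher), 71 with quantile normalization (16 and 55), 57 with the replicate block, 2 with only 8 arrays, 0 with the covariate (54 unadjusted) and 152 without both arrays, with 54 without a filter and 0 to 121 over single arrays left out. At 6 Gy 55 (38 lower and 17 higher) became 36, 0 (62 unadjusted), 183 (28 and 155), 128 (35 and 93), 80 with the block, 0 with 8 arrays (75 unadjusted), 0 with the covariate (24 unadjusted) and 174, with 88 without a filter, 35 for probes detected on all arrays, 102 with total gene signal (41 and 61) and 0 to 151. At 10 Gy 1 became 0 to 71. The 75th percentile over all probes moved the median difference over all miRNAs to 0.40 at 2 Gy and 0.52 at 6 Gy. Relative to these, the pair's falls are larger than the differences printed. The main fit did not take replicate numbers as pairs. The slide as a random block was not run, since each dose lies on 1 slide. miR-221-3p has no value with only probes detected on all 16 arrays. Each fit without an array kept the scaling and filter of all 16.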
